A study of Homo sapiens with 12 samples.

Results

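L1236, a line established from classical Hodgkin lymphoma (cHL), was compared with the B-lineage control lines Reh and Namalwa, and the genes described first are those that set L1236 apart not only from the controls but also from the other cHL lines, L428 and KM-H2. A gene was taken as higher in L1236 alone when both L1236 libraries lay above all 4 libraries of Reh and Namalwa while all 4 libraries of L428 and KM-H2 stayed within the range of those controls, and as lower in L1236 alone when both L1236 libraries lay under that range. The rule found 541 of 26210 rows of the expression table, 435 higher and 106 lower. These measured values chose the genes, so their levels are described here and not tested.

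The series held 12 total-RNA libraries, 2 for each of 6 groups. L1236, L428 and KM-H2 were untreated cHL lines grown in IMDM. Reh, labelled a pro-B lymphoblastic leukaemia line, and Namalwa, a Burkitt's lymphoma line, were untreated and grown in RPMI. The medium and the kind of tumour can therefore not be told apart. A further group, Reh with the phorbol ester PMA at 2 ng/ml (Reh_PMA), entered only where it is named. Each group is a single cell line with no genetic alteration named in the labels, and the labels do not say whether the duplicates came from separate cultures, so every p-value measures only the spread between libraries.

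Hodgkin and Reed-Sternberg (HRS) cells, the tumour cells of cHL, descend from mature B cells but have shut down most of the B-cell programme. They depend on NF-κB and JAK-STAT signalling, carry CD30 (TNFRSF8) and secrete chemokines and cytokines that draw other leukocytes around them. The study asked how far long terminal repeat elements, remnants of retroviruses that can act as promoters, shape the expression programme of cHL, and the comparison of L1236 with the controls gives the expression side of it for 1 line.

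L1236 carried the marker pattern of a cHL line with exceptions. The summed level of the Hodgkin markers TNFRSF8, TRAF1, FSCN1, CCL17 and CCL22 was 200 and 133 FPKM (fragments per kilobase of transcript, scaled to library size) in the L1236 libraries and at most 16.4 FPKM in the controls. FSCN1 gave 119 and 78.3 FPKM of the L1236 sums, and CCL22 only 2.83 and 1.74 FPKM. In L1236, CD79A, CD79B and MS4A1 each stayed at or under 0.794 FPKM. An exception was POU2AF1, a coactivator of B-cell transcription listed as low in HRS cells, which stood at 20.3 and 19.4 FPKM. Another was the B-cell marker PAX5, at 33.8 and 19.8 FPKM in L1236 and at most 1.84 FPKM in L428 and KM-H2. Markers of T cells (sum 0.123 and 0.159 FPKM) and of myeloid cells (0.122 and 0.0639 FPKM) were near 0, and the fibroblast markers summed to 3.8 and 5.03 FPKM, of which COL3A1 gave 3.51 and 4.69 FPKM. In bulk RNA a smaller number of cells expressing a gene and less RNA per cell cannot be told apart.

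The duplicates of the cHL lines lay further apart than those of the controls. On log2(FPKM + 1), the scale of every log2 value below, the SD of the difference between the libraries of a line was 0.871 for L1236, 0.949 for L428 and 0.85 for KM-H2, but 0.393 for Reh and 0.508 for Namalwa. Genes of small nucleolar RNAs took 15.2% of the summed FPKM in the first L1236 library (column suffix 0) and 35.6% in the second (suffix 1), against 10.3 to 14.6% in the controls. The suffix 1 libraries of L428 (40.5% against 12.3%) and KM-H2 (28.9% against 12.6%) differed from their suffix 0 libraries in the same way. Across the 14679 genes tested, the suffix 1 minus suffix 0 difference of L1236 correlated with that of L428 (Pearson r 0.681) and of KM-H2 (0.427), and less with those of Reh (0.043) and Namalwa (0.165); genes are not independent replicates, and no label says what the suffixes share. The depth of the libraries is unknown, because the table holds no counts. Scaled to the sum without these genes, the median difference of all genes between L1236 and the controls moved from -0.01 to 0.18, and the share of called genes that were higher in L1236 moved from 54.1% to 67.7%.

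**Figure D1:**
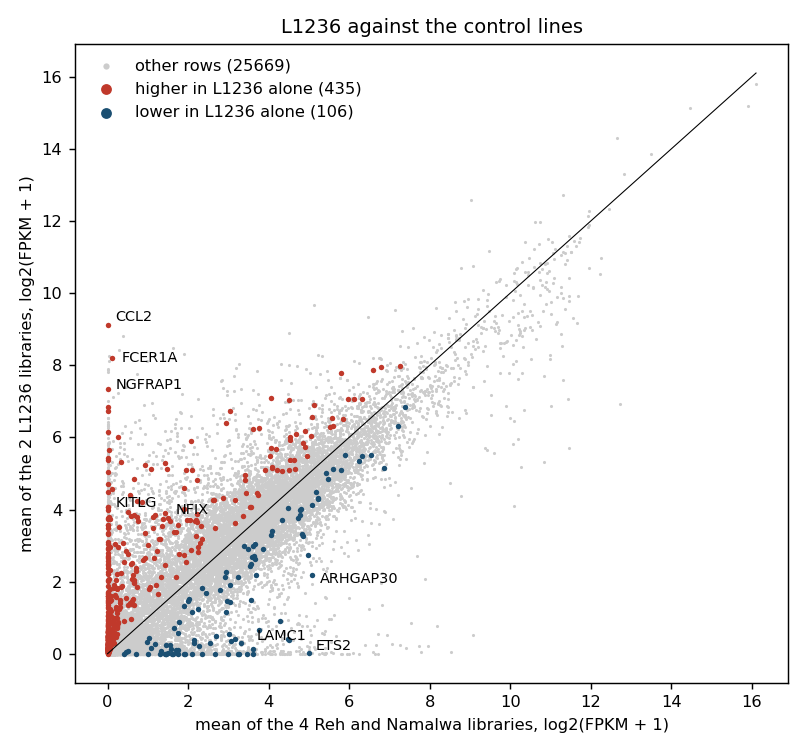
Mean of the 2 L1236 libraries (vertical axis) against the mean of the 4 Reh and Namalwa libraries (horizontal axis), both as log2(FPKM + 1), 1 point for each row of the table, with the line of equal values. The 435 genes higher in L1236 alone (red) reach from the line to CCL2 at the top left, and the 106 lower ones (blue) end in ETS2 and LAMC1 at the bottom.

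Among all rows, 4583 (17.5%) had both L1236 libraries above all 4 control libraries, and 3705 (14.1%) had both under them. Of the 4583, L428 and KM-H2 were also above the controls in 1487 (32.4%), L428 without KM-H2 in 924 (20.2%) and KM-H2 without L428 in 651 (14.2%), and all 4 of their libraries were inside the control range in 435 (9.49%). Of the 3705, the corresponding counts were 1262 (34.1%), 815 (22.0%), 611 (16.5%) and 106 (2.86%). The members thus made up 1.66% (higher) and 0.404% (lower) of all rows, which are the shares that the rule itself fixed.

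Members higher in L1236 alone ranged from major transcripts to traces. Both L1236 libraries reached at least 1 FPKM for 219 of the 435, at least 10 FPKM for 103 and at least 100 FPKM for 13, whereas 216 were under 1 FPKM in at least 1 L1236 library. A group of 188 members was listed at 0 in all 4 control libraries, and 149 were listed at 0 in all 10 libraries outside L1236. Of these genes, 221 passed the filter on low values (at least 1 FPKM in 2 or more libraries), as did 102 of the 106 lower ones.

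The members that stood furthest above the controls were led by a chemokine and by a chain of an immunoglobulin receptor. CCL2, the chemokine that attracts monocytes (chr17:32582293-32584227, GRCh37), reached 526 and 584 FPKM in L1236 and was listed at 0 in all 8 libraries of L428, KM-H2, Reh and Namalwa. FCER1A, the ligand-binding chain of the high-affinity IgE receptor (chr1:159259504-159278014), measured 293 and 295 FPKM in L1236 and at most 0.106 FPKM in any other library. Both genes were among the most abundant members, and the L1236 duplicates of FCER1A differed by less than those of CCL2.

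Other signalling molecules followed at lower levels. CYSLTR2, a receptor for cysteinyl leukotrienes, measured 24.1 and 19.1 FPKM, and KITLG, the ligand of the KIT receptor, 16.1 and 15.5 FPKM, and both were listed at 0 in the 10 libraries outside L1236. IL4, the cytokine of type 2 immunity, had the same pattern at 1.11 and 1.4 FPKM. NGFRAP1 (also named BEX3), an adaptor of the p75 neurotrophin receptor, measured 136 and 188 FPKM and was listed at 0 elsewhere. CLEC17A, a C-type lectin receptor of B cells, was at 25 and 31.4 FPKM in L1236, at 1.06 and 2.1 FPKM in Namalwa and at most 0.338 FPKM in the remaining libraries, so that here a control line carried a low level of its own. CLEC17A was chosen after its values were seen.

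The remaining leaders included enzymes, a transporter, a keratin and non-coding transcripts. UGT2B17, which glucuronidates steroids, stood at 41.1 and 58 FPKM in L1236 and at 0.107 FPKM in a single Namalwa library. It shares near-identical copies with UGT2B15, so that the split of reads between them is uncertain. TMPRSS13, a membrane serine protease, measured 43.3 and 34.7 FPKM against at most 0.757 FPKM elsewhere. KRT27, a keratin of the hair follicle, measured 31 and 32.2 FPKM and was listed at 0 in all other libraries.

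SLC35F3, a putative thiamine transporter, stood at 23.4 and 21.8 FPKM in L1236 and at most 0.195 FPKM elsewhere. ANKRD55, an ankyrin repeat gene, was at 38.1 and 42.8 FPKM and listed at 0 in every other library. COLCA2, a gene of the colorectal cancer risk locus on chromosome 11, measured 52.5 and 75.6 FPKM in L1236, and the only control signal was in Reh, at 0.73 and 0.23 FPKM. The unnamed or non-coding transcripts LINC01474 (95.4 and 138 FPKM), LOC102723828 (79.9 and 62.5 FPKM), LOC101928304 (33.9 and 51.2 FPKM) and LOC100507639 (23.3 and 27.3 FPKM) were listed at 0 outside L1236. For all of these genes the L1236 values stood far above those of every other line.

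**Figure D2:**
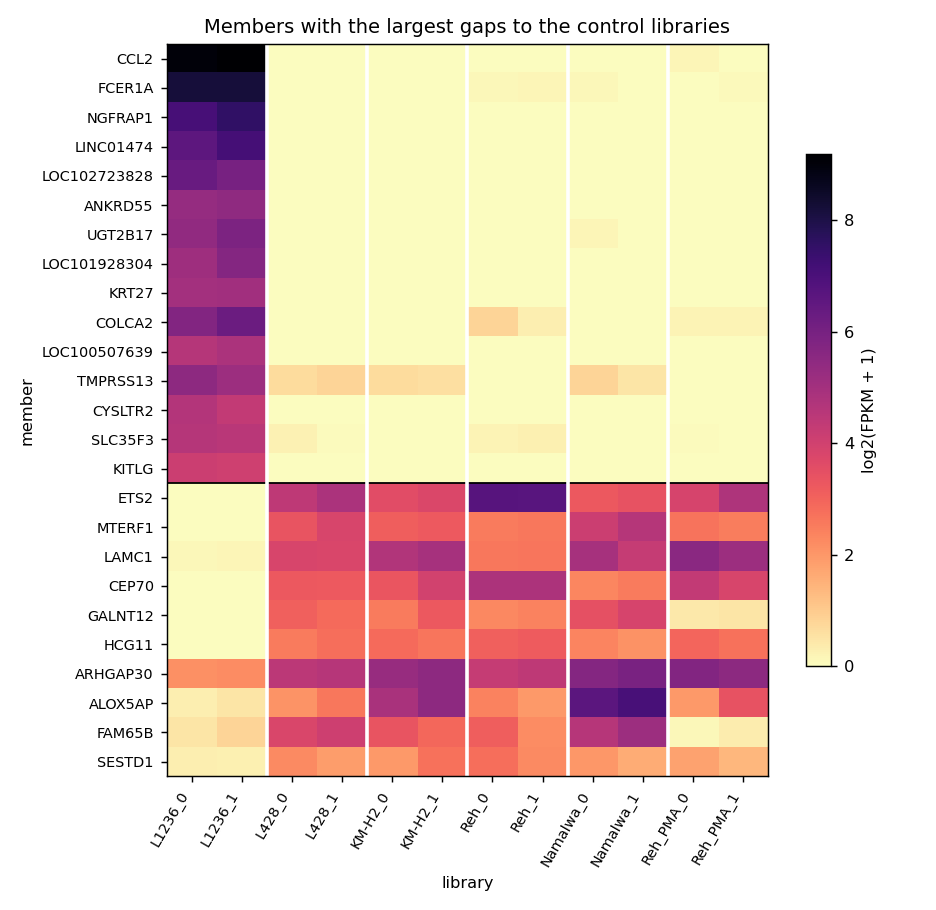
log2(FPKM + 1) by library (columns) for the 15 named members highest above the controls and the 10 lowest under them (rows), with darker colour for higher values. CCL2 and FCER1A are dark in both L1236 columns and pale in all other columns, and ETS2, MTERF1 and CEP70 are pale in L1236 only.

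By contrast, the members with the highest absolute levels included housekeeping genes whose distance to the controls was small. Besides CCL2, FCER1A and NGFRAP1, the 13 members at 100 FPKM or more were PDIA6, PSMB8, ATF5, ARPC5, C20orf24, PSMB7, PSMD6, SORL1, HDAC3 and PIM2, which were chosen for their level after the values were seen. PSMB8, an immunoproteasome subunit, measured 215 and 287 FPKM in L1236, 137 and 207 FPKM in Reh and 54.3 and 95.8 FPKM in Namalwa. PDIA6, a protein disulphide isomerase of the endoplasmic reticulum, measured 263 and 241 FPKM against 119 to 204 FPKM in the controls. For both genes the lower L1236 library lay only slightly above the highest control library.

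SORL1, HDAC3 and PIM2 were set apart more clearly. SORL1, a sorting receptor of the endosome, measured 151 and 122 FPKM in L1236 and 9.22 to 30.7 FPKM in the controls. HDAC3, the histone deacetylase of the NCoR complex, measured 116 and 123 FPKM against 28.1 to 38.1 FPKM. PIM2, a serine/threonine kinase induced by JAK-STAT signalling, measured 114 and 147 FPKM, against 53.5 and 48.2 FPKM in Namalwa and 10.1 and 8.25 FPKM in Reh. L428 and KM-H2 lay between 12.3 and 37 FPKM for all of these genes.

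The 221 higher members that passed the filter had a median gap of 0.93 (log2) between the lower L1236 library and the highest control library, and 106 of them had a gap of at least 1. The median absolute difference between the L1236 libraries of the higher members was 0.26, which compares with 0.25 over all genes. Just inside the threshold, FBXO25 measured 8.36 and 10.5 FPKM in L1236 against 8.35 FPKM in a Namalwa library, and just outside it CEP78 measured 27.4 and 31.3 FPKM against 27.5 FPKM in a Reh library. HOXD13 (17.9 and 9.69 FPKM) fell outside the rule because a single L428 library held 0.0345 FPKM while the controls were listed at 0. Small traces in L428 or KM-H2 therefore decided membership at low control levels.

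Some members were neighbours in the genome. Of 407 higher members with a position, 95 lay in 43 runs in which neighbouring members were at most 200000 bases apart, and of 102 lower members 8 lay in 4 runs. The run with the most members held the homeobox genes HOXD11, HOXD10, HOXD3 and HOXD4 at chr2:176968944-177037830, which specify position along the body axis and are transcribed in the same direction. HOXD11 measured 16.7 and 9.86 FPKM, HOXD10 7.4 and 5.68 FPKM, HOXD4 4.12 and 2.26 FPKM and HOXD3 0.466 and 0.637 FPKM in L1236, and no other library held more than 0.081 FPKM of any of them. The annotated HOXD genes overlap in part, and reads may be shared between them.

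Further runs joined genes with different levels. On chromosome 9, CDKN2A, which encodes the cell cycle inhibitor p16, stood at 79.7 and 88.5 FPKM and its neighbour CDKN2B-AS1 at 6.61 and 4.21 FPKM. Namalwa also expressed CDKN2A, at 58.2 and 57.1 FPKM, and L428 did so at 36.2 and 34.9 FPKM, whereas it was listed at 0 in Reh. On chromosome 19, the erythroid factor KLF1 (0.803 and 0.511 FPKM) lay beside NFIX. The runs were formed from members only and no comparison with random genes was made.

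Members of both directions were mostly protein-coding. Of 433 higher members with a gene type, 338 (78.1%) were protein-coding and 80 (18.5%) long non-coding RNAs, and of 105 lower members 98 (93.3%) were protein-coding, while protein-coding genes were 73.0% and long non-coding RNAs 14.4% of all rows. Across the autosomes and the X chromosome, the higher members took between 0.948% (chromosome 10) and 2.79% (chromosome 4) of the rows.

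Promoters are printed for 4 members among those furthest from the controls, 3 higher and 1 lower, so that their sequences can be read beside their values. Each window spans 250 bases before to 50 bases after a RefSeq transcription start, is written 5′ to 3′ on the gene's strand, and was found once in GRCh37. Capitals mark matches to the NFI motif TTGGCA, the NF-κB motif GGGNNTTCC, the AP-1 motif TGANTCA, the octamer ATGCAAAT, the E-box CAGGTG and TATAAA on either strand. The windows are chr1:159271876-159272175 (plus strand) for FCER1A, chr13:49227815-49228114 (plus) for CYSLTR2, chr12:88974199-88974498 (minus) for KITLG and chr1:182992305-182992604 (plus) for LAMC1.
FCER1A: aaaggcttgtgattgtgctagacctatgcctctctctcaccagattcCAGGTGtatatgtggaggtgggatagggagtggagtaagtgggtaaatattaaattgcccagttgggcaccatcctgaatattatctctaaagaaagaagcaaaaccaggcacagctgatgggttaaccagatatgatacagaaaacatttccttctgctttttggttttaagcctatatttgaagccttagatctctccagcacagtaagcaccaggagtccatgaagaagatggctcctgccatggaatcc
CYSLTR2: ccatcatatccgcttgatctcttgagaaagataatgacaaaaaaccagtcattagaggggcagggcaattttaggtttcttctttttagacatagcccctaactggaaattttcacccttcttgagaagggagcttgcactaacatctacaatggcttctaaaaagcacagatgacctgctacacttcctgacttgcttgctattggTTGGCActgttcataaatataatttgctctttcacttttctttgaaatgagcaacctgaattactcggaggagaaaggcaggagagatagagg
KITLG: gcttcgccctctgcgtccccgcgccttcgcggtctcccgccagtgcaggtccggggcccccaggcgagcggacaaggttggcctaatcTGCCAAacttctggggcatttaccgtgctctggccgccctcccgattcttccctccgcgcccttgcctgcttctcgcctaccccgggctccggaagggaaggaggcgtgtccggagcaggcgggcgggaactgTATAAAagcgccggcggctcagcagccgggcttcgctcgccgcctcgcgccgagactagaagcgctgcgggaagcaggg
LAMC1: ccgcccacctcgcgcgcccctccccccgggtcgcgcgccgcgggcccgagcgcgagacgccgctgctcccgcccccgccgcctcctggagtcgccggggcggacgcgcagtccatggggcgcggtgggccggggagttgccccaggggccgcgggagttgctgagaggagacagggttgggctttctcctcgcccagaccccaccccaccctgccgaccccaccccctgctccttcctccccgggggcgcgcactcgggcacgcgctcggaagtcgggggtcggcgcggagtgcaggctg

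FCER1A held the E-box at position -203 from the start, CYSLTR2 the NFI motif at -43, and KITLG the NFI motif on the opposite strand (TGCCAA) at -162 and TATAAA at -29, while LAMC1 held none of the 6 motifs. RefSeq windows were found for 317 of the 435 higher members (420 windows) and for 82 of the 106 lower members (149 windows). The NFI motif was present in 12.1% of the windows of higher members, in 6.71% of those of lower members in 11.4% of the 24234 windows of all rows of the table and in 12.5% of all 35116 windows. The corresponding shares were 5.71%, 7.38%, 7.14% and 6.58% for NF-κB, 6.43%, 5.37%, 6.61% and 7.71% for AP-1, and 1.9%, 2.01%, 1.64% and 1.77% for the octamer. In the same order they were 21.9%, 25.5%, 20.0% and 20.6% for the E-box and 12.9%, 7.38%, 9.63% and 11.5% for TATAAA. Windows of 1 gene can overlap and the motifs were counted independently, so these shares are descriptions of letters and not of bound sites.

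The members lower in L1236 alone were led by genes at or near 0 in L1236 that every other line expressed. ETS2, a transcription factor of the ETS family (chr21:40177107-40196879), was listed at 0 and 0.0244 FPKM in L1236 but measured 105 and 102 FPKM in Reh, 8.5 and 9.46 FPKM in Namalwa, 19.9 and 27.4 FPKM in L428 and 11 and 12.4 FPKM in KM-H2. LAMC1, the laminin γ1 chain of basement membranes, stood at 0.0857 and 0.12 FPKM in L1236 and between 5.1 and 30 FPKM in those lines. MTERF1, a mitochondrial transcription termination factor, was listed at 0 in both L1236 libraries and measured 4.76 to 23.6 FPKM in the same lines. In each of these genes the L1236 values lay far under those of the other 8 untreated libraries.

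CEP70, a centrosomal protein, was likewise listed at 0 in L1236 and measured 26.8 and 26.5 FPKM in Reh and 3.94 and 4.83 FPKM in Namalwa. GALNT12, which starts mucin-type O-glycosylation, was listed at 0 in L1236 against 3.82 to 13.6 FPKM in the controls. ALOX5AP, the activating protein of 5-lipoxygenase in leukotriene synthesis, measured 0.225 and 0.406 FPKM in L1236, 4.18 and 2.89 FPKM in Reh and 97.2 and 133 FPKM in Namalwa. L428 (3.17 and 5.09 FPKM) and KM-H2 (28.5 and 44 FPKM) spanned much of that range of the controls. L1236 thus had little ALOX5AP beside its CYSLTR2.

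ARHGAP30, a GTPase-activating protein of blood cells, kept a clear signal in L1236, at 3.38 and 3.63 FPKM, under the 18.3 to 60.4 FPKM of the controls. FAM65B measured 0.388 and 0.763 FPKM against 3.62 to 34.4 FPKM, the non-coding HCG11 0 and 0.008 FPKM against 3.29 to 8.03 FPKM, and SESTD1, a spectrin-domain protein, 0.241 and 0.202 FPKM against 2.03 to 5.92 FPKM. Of all 106 lower members, 51 were under 1 FPKM in both L1236 libraries, 19 were listed at 0 in both, and 75 had at least 1 FPKM in all 4 control libraries. The median gap of the 102 that passed the filter was 0.24, so that most lay only slightly under the controls: XPO7 measured 12.5 and 11.5 FPKM in L1236 beside 12.5 FPKM in a Namalwa library.

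The lists of NF-κB, JAK-STAT and AP-1 genes each held 1 higher member, too few for a statement about these pathways. Of the genes of each list in the table, 1 of 20 for NF-κB, 1 of 19 for JAK-STAT and 1 of 16 for AP-1 was a higher member, where the share over all rows was 1.66%. BIRC3, an inhibitor of apoptosis induced by NF-κB, measured 90.2 and 123 FPKM in L1236, 67.6 and 43.7 FPKM in Namalwa and at most 0.348 FPKM in Reh, and L428 and KM-H2 lay between 20.7 and 47.1 FPKM. FOSL2, an AP-1 subunit, was at only 1.82 and 1.44 FPKM in L1236 beside 1.36 and 1.27 FPKM in Reh. For these genes the control lines differed from each other by more than L1236 differed from the higher of them.

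Among the lower members of the lists, COL5A1, a fibrillar collagen chain, was listed at 0 in L1236, measured 15.6 and 17.2 FPKM in Reh and at most 0.0838 FPKM in Namalwa. EPHB4, an ephrin receptor tyrosine kinase, measured 0.396 and 0.263 FPKM in L1236, 45.4 and 44.5 FPKM in Reh and 0.73 and 0.774 FPKM in Namalwa. Both thus lay under Namalwa by a small distance and under Reh by a large one.

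PMA, which activates protein kinase C and with it NF-κB and AP-1, was used by the study as an inflammatory stimulus of Reh. Both Reh_PMA libraries lay above all 4 untreated control libraries in 71 of the 435 higher members (16.3%), where the share over all rows was 15.2%. They lay under the controls in 24 of the 106 lower members (22.6%), where the share over all rows was 16.7%. The side opposite to L1236 held 9 higher members (2.07%, beside 16.7% of all rows) and 11 lower members (10.4%, beside 15.2%). No library can lie under a control listed at 0. The 188 higher members listed at 0 in all 4 control libraries could therefore not be counted there. The comparison shares the untreated Reh libraries with the rule, so no test was made. With Reh alone as the control the counts were 88 higher members, where the share over all rows was 20.6%, and 54 lower members, where it was 27.2%.

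Some of these members reached higher levels in Reh_PMA than in L1236; the following were chosen after their values were seen. ANTXR2, an anthrax toxin receptor, measured 109 and 106 FPKM in Reh_PMA where L1236 had 14.9 and 12.2 FPKM, and FOSL2 measured 60.4 and 33.7 FPKM. LCP2, an adaptor of antigen receptor signalling, measured 30.1 and 52.3 FPKM in Reh_PMA, 12.3 and 8.51 FPKM in L1236 and 3.58 and 3.64 FPKM in untreated Reh. In contrast, CCL2 was at 0.114 and 0 FPKM, FCER1A at 0 and 0.0619 FPKM and KITLG was listed at 0 in both Reh_PMA libraries.

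Over all genes, L1236 differed widely from the controls. Of 14679 genes tested with limma, 2298 (15.7%) were higher and 1953 (13.3%) lower in L1236 than in the mean of Reh and Namalwa, at an adjusted p under 0.05 and a log2 difference of at least 1. Against the mean of L428 and KM-H2, 1546 (10.5%) were higher and 1508 (10.3%) lower. Scaled to the sum without small nucleolar RNA genes, the split against the controls was 2993 higher and 1427 lower. These are the background for the counts over the gene lists, and both contrasts use the same L1236 libraries.

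Besides CCL2, the genes that rose most against the controls encode enzymes and leukocyte signals. DHRS2, a mitochondrial short-chain dehydrogenase, measured 449 and 455 FPKM in L1236 and at most 0.926 FPKM in the controls, a difference of 8.44 ± 0.55 (SE; adjusted p = 2.42e-06). GPR15, a receptor that guides lymphocytes to the gut, measured 195 and 485 FPKM and rose by 8.24 ± 0.33 (adjusted p = 1.5e-07). CXCL10, an interferon-induced chemokine, measured 192 and 621 FPKM and rose by 8.16 ± 0.55 (adjusted p = 2.98e-06). ALOX15, a lipoxygenase that oxidises arachidonic and linoleic acid, measured 393 and 198 FPKM and rose by 8.10 ± 0.25 (adjusted p = 3.78e-08).

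The other cHL lines shared these genes to different degrees. DHRS2 was high in L428 (60.5 and 134 FPKM) and KM-H2 (1400 and 289 FPKM), and its difference from them did not pass the test (0.91 ± 0.55, adjusted p = 0.237), although without the first KM-H2 library it was 1.48 and called. ALOX15 measured 3.43 and 4.08 FPKM in L428 and was listed at 0 in KM-H2, and it was higher in L1236 by 7.01 ± 0.25 (adjusted p = 1.11e-07). GPR15 was higher than in the mean of those lines by 2.67 ± 0.33 (adjusted p = 0.000235) and CXCL10 by 3.24 ± 0.55 (adjusted p = 0.00162). The lines were unlike: GPR15 measured 128 and 99.2 FPKM in L428 and 24 and 16.4 FPKM in KM-H2. CXCL10 measured 5.58 and 21.7 FPKM in L428 and 145 and 81.9 FPKM in KM-H2. All 4 genes were thus foreign to the controls, and 3 of them were also higher in L1236 than in the mean of its cHL counterparts.

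The 5 genes that fell most included 3 genes of the B-cell surface, CD79B, CD24 and CD52. CD79B, a signalling chain of the B-cell receptor, measured 0.303 and 0.592 FPKM in L1236 and 394 to 889 FPKM in the controls (-8.56 ± 0.31, adjusted p = 8.28e-08). CD52, a glycoprotein of mature lymphocytes, fell by 7.50 ± 0.35 (adjusted p = 3.27e-07) and RCSD1, a regulator of actin capping, by 7.73 ± 0.22 (adjusted p = 2.55e-08). These 3 genes did not pass the test between L1236 and the other cHL lines (adjusted p = 0.323, 0.326 and 0.975), although with a pseudocount of 0.1 CD79B was called higher, by 1.89. CD24, a mucin-like protein of B-cell precursors, and EDF1, a transcriptional coactivator, fell by 8.49 ± 0.32 and 7.73 ± 0.23 against the controls, and both were also lower than in L428 and KM-H2, by -4.27 (adjusted p = 9.37e-06) and -7.34 (adjusted p = 6.19e-08).

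Of the 332 tested genes of 21 lists, 132 were higher and 74 lower than in the controls, and 84 higher and 76 lower than in L428 and KM-H2. They include 12 members, whose values the rule had used; without these the counts over 320 genes were 124 and 71 against the controls and 76 and 74 against the other cHL lines. Of the 20 B-cell receptor and B-lineage surface genes, 15 were lower and none higher than in the controls by limma, with a median difference of -3.97 where the median of all genes tested was -0.01. At an unadjusted limma p under 0.05 the counts against the controls were 16 lower and 0 higher. Against the other cHL lines, 1 gene of this list was higher and 3 were lower (median -0.07). CD79A fell by 7.41 ± 0.44 (adjusted p = 1.44e-06) to 0.609 and 0.794 FPKM.

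The B-lineage transcription factors were lower in 12 and higher in 1 of 18 (median -1.64), and against L428 and KM-H2 5 were higher and 4 lower (median 0.48). BACH2, a repressor of plasma cell fate, fell by 5.40 ± 0.34 (adjusted p = 1.89e-06), EBF1, which specifies the B lineage, by 5.05 ± 0.23 (adjusted p = 2.75e-07), and SPI1 (PU.1), listed at 0 in all cHL libraries, by 4.87 ± 0.15 (adjusted p = 3.55e-08). The gene called higher was IKZF3 (Aiolos), at 12.9 and 10.6 FPKM, but Namalwa measured 31.3 and 25.9 FPKM, and against Namalwa alone the difference was -1.22. Leaving out the first L1236 library ended the call of IKZF3, at 1.07.

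PAX5 and POU2AF1, chosen after their values were seen, were higher in L1236 than in the other cHL lines. PAX5, the commitment factor of the B lineage, measured 33.8 and 19.8 FPKM in L1236, 64.1 and 52.5 FPKM in Reh, 77.8 and 56.6 FPKM in Namalwa and at most 1.84 FPKM in L428 and KM-H2. It was lower than in the controls by -1.23 ± 0.32 (adjusted p = 0.0128) and higher than in the other cHL lines by 3.91 ± 0.32 (adjusted p = 1.91e-05). The call against the controls ended without the second L1236 library (-0.86), with scaling without small nucleolar RNA genes (-0.92) and with a pseudocount of 0.1 (-1.26). POU2AF1 did not pass the test against the controls (-0.48 ± 0.40, adjusted p = 0.364) and was higher than in L428 and KM-H2, where it stood at 0 to 0.026 FPKM, by 4.37 ± 0.40 (adjusted p = 3.89e-05). L1236 hence combined very low CD79A and EBF1 levels with clear levels of PAX5 and POU2AF1.

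Of 16 germinal centre and plasma cell genes, 6 were lower and 3 higher than in the controls (median -0.63). IRF4, which drives plasma cell differentiation, measured 194 and 190 FPKM and rose by 4.76 ± 0.25 (adjusted p = 6.82e-07), and ELL2, an elongation factor of antibody-secreting cells, rose by 3.81 ± 0.23 (adjusted p = 1.37e-06). MME (CD10) was listed at 0 in L1236 and fell by 6.65 ± 0.18 (adjusted p = 2.38e-08). CD27, a memory B-cell receptor, measured 17.6 and 9.55 FPKM in L1236, at most 0.267 FPKM in Reh and 23.6 and 38 FPKM in Namalwa, and its difference was 1.18 ± 0.27 from both controls (adjusted p = 0.00664) but -1.15 from Namalwa alone. Without the first L1236 library it was 0.78 and no longer called.

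**Figure D3:**
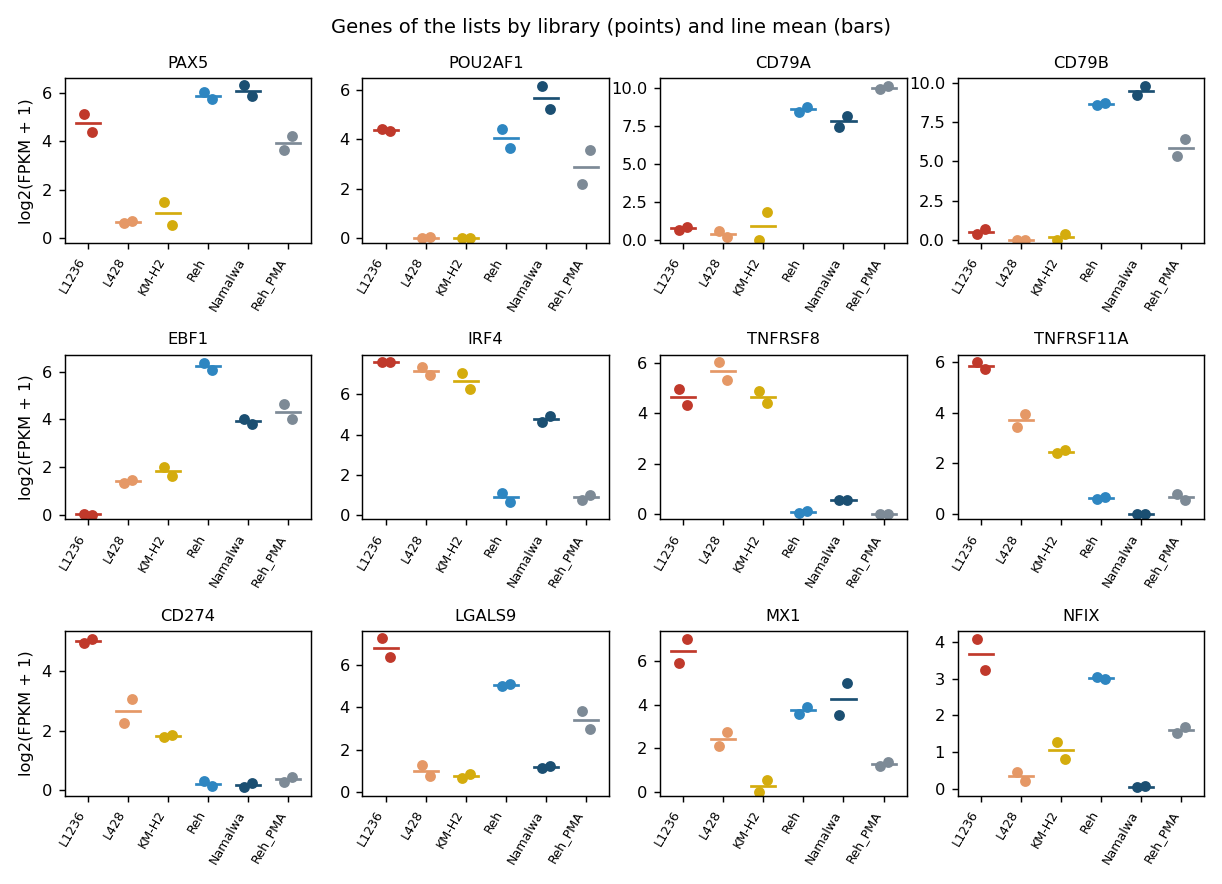
log2(FPKM + 1) of 12 genes in the 2 libraries of each line (points) with the line mean (bars), each panel on its own axis. PAX5, POU2AF1 and LGALS9 are near 0 in L428 and KM-H2 but not in L1236, CD79A, CD79B and EBF1 are near 0 in L1236, and CD274 and TNFRSF11A are highest in L1236.

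The Hodgkin cell markers were higher than in the controls in 9 and lower in 1 of 12 genes (median 3.42), but lower than in L428 and KM-H2 in 6 and higher in 1 (median -1.53). TNFRSF8 (CD30) measured 30.6 and 19.1 FPKM in L1236 and at most 0.505 FPKM in the controls (4.32 ± 0.26, adjusted p = 1.57e-06), and its difference from the other cHL lines did not pass the test (-0.50 ± 0.26, adjusted p = 0.179). CCL17, a chemokine for T cells, rose by 4.67 ± 0.53 (adjusted p = 9.06e-05) and FSCN1, an actin-bundling protein, by 4.53 ± 0.28 (adjusted p = 1.94e-06). CD83, a maturation marker of dendritic cells and B cells, was the marker called lower: 3.18 and 2.49 FPKM in L1236 against 9.61 to 21.1 FPKM in the controls (-2.0 ± 0.20, adjusted p = 4.01e-05) and 48.3 to 198 FPKM in L428 and KM-H2 (-4.57 ± 0.20, adjusted p = 4.26e-07).

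NF-κB and its target genes were higher than in the controls in 15 and lower in 2 of 20 (median 1.71), or 14 and 2 of 19 without the member BIRC3. Against the other cHL lines, 4 were higher and 5 lower (median -0.44), or 3 and 5 without BIRC3. CFLAR, an inhibitor of caspase-8, measured 161 and 224 FPKM and rose by 4.76 ± 0.24 (adjusted p = 4.54e-07), and ICAM1, an adhesion molecule, rose by 3.99 ± 0.24 (adjusted p = 1.46e-06). TRAF2, an adaptor of TNF receptors that connects them to NF-κB, was listed at 0 in both L1236 libraries and at 12.2 to 26.6 FPKM in L428, KM-H2, Reh and Namalwa. It was lower than in the controls by -4.45 ± 0.27 (adjusted p = 1.77e-06) and lower than in the other cHL lines by -4.35 ± 0.27 (adjusted p = 3.51e-06).

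JAK-STAT pathway genes were higher than in the controls in 11 and lower in 1 of 19 (median 1.19), or 10 and 1 of 18 without the member PIM2. Against L428 and KM-H2, 5 were higher and 3 lower (median 0.01), or 4 and 3 without PIM2. SOCS3, a feedback inhibitor of cytokine receptors, measured 37.3 and 25.3 FPKM and rose by 4.79 ± 0.31 (adjusted p = 2.55e-06). JAK2, a kinase of cytokine receptors, measured 52.4 and 53.1 FPKM and rose by 3.85 ± 0.23 (adjusted p = 1.3e-06). The kinase gene PIM1 went the other way from PIM2: it was at 3 and 4.24 FPKM and lower than in the controls by -2.35 ± 0.35 (adjusted p = 0.000507) and than in the other cHL lines by -2.54 ± 0.35 (adjusted p = 0.000474).

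AP-1 family genes were higher in 8 and lower in none of 15 against the controls (median 1.21) and higher in 3 and lower in none against the other cHL lines (median 0.28). At an unadjusted limma p under 0.05, 0 were lower than in the controls and 1 was lower than in the other cHL lines. BATF3, an AP-1 partner of dendritic cells, measured 324 and 395 FPKM in L1236, 189 and 215 FPKM in L428 and 72 and 31.9 FPKM in KM-H2, and rose by 6.85 ± 0.33 against the controls (adjusted p = 4.23e-07). BATF rose by 5.99 ± 0.32 (adjusted p = 7.1e-07) and ATF3 by 3.66 ± 0.39 (adjusted p = 5.78e-05), and neither passed the test against L428 and KM-H2 (0.28, adjusted p = 0.551, and 0.02, adjusted p = 0.992).

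Of the 4 nuclear factor I genes, which bind the TTGGCA motif, 2 were higher than in the controls and none was lower (median 1.53), although under quantile normalization, and at an unadjusted limma p under 0.05, 1 was called lower. NFIX is a member, and its own values against the controls chose it, so the count rests on NFIB among the other 3. NFIX, a member higher in L1236 alone (chr19:13106289-13209610), measured 16.1 and 8.51 FPKM in L1236, 7.31 and 7.03 FPKM in Reh, 0.0378 and 0.043 FPKM in Namalwa, 0.379 and 0.166 FPKM in L428 and 1.43 and 0.748 FPKM in KM-H2. The lower L1236 library thus lay only slightly above Reh and far above Namalwa. NFIB measured 4.92 and 4.57 FPKM and rose by 2.44 ± 0.25 (adjusted p = 4.68e-05), and its difference of 0.91 ± 0.25 from the other cHL lines was under the limit of 1 (adjusted p = 0.0192) but called without the first KM-H2 library (1.19), with a pseudocount of 0.1 (1.24) and with scaling without small nucleolar RNA genes (1.09).

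In the TNF receptor superfamily, 7 of 19 genes were higher and 4 lower than in the controls (median 0.07), and 4 were higher and 5 lower than in L428 and KM-H2 (median -0.25). TNFRSF11A (RANK), the receptor of RANK ligand, measured 61.5 and 51.8 FPKM in L1236, 9.76 and 14.5 FPKM in L428, 4.26 and 4.78 FPKM in KM-H2, 0.533 and 0.589 FPKM in Reh, and was listed at 0 in Namalwa. It rose by 5.52 ± 0.19 against the controls (adjusted p = 7.28e-08) and was higher than in the other cHL lines by 2.77 ± 0.19 (adjusted p = 6.39e-06). CD40, a costimulatory receptor of B cells, measured 140 and 147 FPKM and rose by 4.20 ± 0.20 (adjusted p = 3.5e-07). TNFRSF21 fell by 4.24 ± 0.27 (adjusted p = 2.3e-06) and TNFRSF1A, the receptor for TNF, by 2.78 ± 0.26 (adjusted p = 2.39e-05).

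The other genes that the study followed gave a mixed picture. CSF1R, the receptor of colony-stimulating factor 1, was at 0.463 and 0.246 FPKM in L1236, and its difference from the controls did not pass the test (0.19 ± 0.18, adjusted p = 0.412), whereas Reh_PMA measured 11.8 and 11.2 FPKM. WNT5A, a secreted ligand of non-canonical WNT signalling, measured 0.661 and 1.52 FPKM in L1236 and 49.8 and 45.1 FPKM in KM-H2, and it was lower than in the other cHL lines by -2.77 ± 0.18 (adjusted p = 4.71e-06), where L428 measured 2.8 and 3.19 FPKM. CBFA2T3 (ETO2), a corepressor, was listed at 0 in L1236 and L428 and measured 6.68 and 4.43 FPKM in Reh and 2.02 and 1.83 FPKM in Namalwa (-2.12 ± 0.16, adjusted p = 7.6e-06).

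Of 13 chemokines, 9 were higher and none lower than in the controls (median 2.04), or 8 and 0 of 12 without the member CCL2. Against L428 and KM-H2, 5 were higher and 5 lower (median 0.19), or 4 and 5 without CCL2. The count of chemokines lower than in the controls was also 0 at an unadjusted limma p under 0.05. Of 24 interleukins and their receptors, 15 were higher and 2 lower than in the controls (median 1.66), or 14 and 2 of 23 without the member IL4. Against the other cHL lines, 8 were higher and 4 lower (median -0.05), or 7 and 4 without IL4. IL13RA1, a receptor chain for IL-13, measured 121 and 156 FPKM and rose by 6.98 ± 0.23 (adjusted p = 5.23e-08), and IL6 measured 42.7 and 60.9 FPKM and rose by 5.70 ± 0.32 (adjusted p = 1.07e-06). IL7R, the receptor that early B cells need, was listed at 0 in L1236 and fell by 5.00 ± 0.21 (adjusted p = 1.83e-07).

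Of 13 checkpoint and costimulatory ligands, 8 were higher and 2 lower than in the controls (median 3.07), and 6 were higher and 4 lower than in the other cHL lines (median 0.72). CD274 (PD-L1) measured 29.9 and 33.1 FPKM in L1236, 3.74 and 7.28 FPKM in L428, 2.48 and 2.63 FPKM in KM-H2 and at most 0.232 FPKM in the controls. It rose by 4.83 ± 0.22 against the controls (adjusted p = 2.92e-07) and was higher by 2.78 ± 0.22 than in the other cHL lines (adjusted p = 1.4e-05). PDCD1LG2 (PD-L2) and CD86 rose by 5.27 ± 0.28 (adjusted p = 6.73e-07) and 5.37 ± 0.19 (adjusted p = 8.29e-08). ICOSLG, the ligand of ICOS, was listed at 0 in L1236 and fell by 2.62 ± 0.22 (adjusted p = 1.38e-05).

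LGALS9 (galectin-9), chosen after its values were seen, measured 153 and 82 FPKM in L1236, 30.9 and 33.1 FPKM in Reh, 1.16 and 1.33 FPKM in Namalwa and at most 1.37 FPKM in L428 and KM-H2. This gene encodes a lectin that binds the T-cell inhibitory receptor TIM-3. It was higher than in the controls by 3.71 ± 0.31 (adjusted p = 1.28e-05) and higher than in the other cHL lines by 5.95 ± 0.31 (adjusted p = 1.27e-06).

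Antigen presentation genes moved unevenly. Of 13 MHC class I pathway genes, 5 were higher and 2 lower than in the controls (median 0.69), or 4 and 2 of 12 without the member PSMB8. Against L428 and KM-H2, 4 were higher and 4 lower (median 0.55), or 3 and 4 without PSMB8. TAP1, a peptide transporter, measured 224 and 287 FPKM and rose by 3.28 ± 0.19 (adjusted p = 1.36e-06), whereas HLA-C was lower by -1.52 ± 0.38 (adjusted p = 0.0104) and HLA-B by -1.09 ± 0.25 (adjusted p = 0.00611). The call of HLA-B ended under quantile normalization (-0.79), scaling without small nucleolar RNA genes (-0.77) and without the second Namalwa library (-0.99), and that of HLA-C against Reh alone (-1.11) and without the second L1236 library (-1.09). Reads of HLA genes can be shared between near-identical copies, so these levels are uncertain. Of 12 MHC class II genes, 1 was higher and 1 lower than in the controls (median 0.28), and 2 were higher and 4 lower than in the other cHL lines (median -0.55). The higher was HLA-DQA1 (3.91 ± 0.40, adjusted p = 4.43e-05), which was listed at 0 in Reh but not in Namalwa. Its call ended with Reh and Namalwa as 1 group. The lower was HLA-DOA (-2.22 ± 0.23, adjusted p = 4.92e-05).

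Interferon-stimulated genes were called higher more often than lower in both comparisons: 18 of 26 against the controls, with 1 lower (median 1.36), and 15 against L428 and KM-H2, with 1 lower (median 1.24). IFI44L measured 38 and 79.1 FPKM and rose by 5.06 ± 0.42 against the controls (adjusted p = 1.2e-05) and by 3.24 ± 0.42 against the other cHL lines (adjusted p = 0.000328). MX1, an antiviral GTPase chosen after its values were seen, measured 58.6 and 128 FPKM in L1236, 10.6 to 30.7 FPKM in the controls and 0 to 5.59 FPKM in L428 and KM-H2 (2.46 ± 0.44, adjusted p = 0.0015, and 5.12 ± 0.44, adjusted p = 2.33e-05). The gene called lower in both was IFITM2, at 0 and 0.301 FPKM in L1236 against 17.3 to 53.9 FPKM in the controls (-4.94 ± 0.41, adjusted p = 1.19e-05). In IFI44L and MX1 the second L1236 library, which also held the larger share of small nucleolar RNA genes, was the higher; the part of this difference in the counts was not tested. Without that library, 12 genes were higher and 1 lower than in the controls, and 5 were higher and 3 lower than in L428 and KM-H2, so that the count against the other cHL lines depends on it. Without the suffix 1 libraries of L1236, L428 and KM-H2 together, an alternative added after seeing the data, 11 were higher and 1 lower than in the controls, and 9 were higher and 1 lower than in L428 and KM-H2; the call of MX1 against the controls ended there (1.90).

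Apoptosis and cell cycle genes showed no common direction. Of 20 genes of the BCL2 family and apoptosis inhibitors, 8 were higher and 5 lower in both comparisons (medians 0.61 and 0.19), and when either L1236 library was left out, 3 were lower than in the controls. The list includes the member BIRC3, without which 7 of 19 were higher and 5 lower in both comparisons. BIRC5 (survivin) was lower than in the controls by -1.75 ± 0.21 (adjusted p = 0.000137). Of 21 cell cycle regulators, 4 were higher and 7 lower than in the controls (median -0.52) and 4 higher and 1 lower than in the other cHL lines (median 0.35), and without the first L1236 library 4 were lower than in the controls. Without the member CDKN2A, 3 of 20 were higher and 7 lower than in the controls, and 3 and 1 against the other cHL lines. CCND2 (cyclin D2) rose by 5.56 ± 0.29 (adjusted p = 6.65e-07) and CCND3 (cyclin D3) fell by 2.94 ± 0.23 (adjusted p = 7.8e-06). CDKN2B (p15), the neighbour of CDKN2A, measured 3.72 and 3.87 FPKM and rose by 1.88 ± 0.22 (adjusted p = 0.000119).

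The lists of receptor tyrosine kinases and of other cell lineages held calls in both directions. Of 22 receptor tyrosine kinases, 7 were higher and 8 lower than in the controls (median -0.52), or 6 and 7 of 20 without the list's 2 members. Against the other cHL lines, 5 were higher and 9 lower (median -0.33), or 4 and 8 without these members. EPHB1 and DDR2 rose by 4.14 ± 0.30 (adjusted p = 5.38e-06) and 4.03 ± 0.17 (adjusted p = 2.03e-07), and INSR, the insulin receptor, fell by 4.49 ± 0.19 (adjusted p = 2.04e-07). Among 14 T-cell and innate lymphoid genes, 5 were higher and 2 lower than in the controls (median 0.21), and 1 higher and 6 lower than in the other cHL lines (median -0.43). TCF7, a transcription factor of T cells and innate lymphoid cells, measured 38 and 41.2 FPKM and rose by 4.35 ± 0.35 (adjusted p = 1.02e-05).

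Of 12 myeloid genes, 2 were higher and 1 lower than in the controls (median -0.04) and 1 higher and 4 lower than in L428 and KM-H2 (median -0.78). FCGR2A, an IgG receptor of myeloid cells and B cells, measured 16.3 and 23.9 FPKM, against 1.4 to 2.3 FPKM in the controls, and rose by 2.85 ± 0.23 (adjusted p = 9.38e-06). Of 14 fibroblast and extracellular matrix genes, 5 were higher and 3 lower than in the controls (median -0.11; without the lower members LAMC1 and COL5A1, 5 higher and 1 lower of 12) and 2 higher and 5 lower than in the other cHL lines (median -0.63). VIM (vimentin) was called higher by 4.38 ± 0.33 (adjusted p = 6.57e-06), a difference that came from Namalwa, since against Reh alone it was 0.08.

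**Figure D4:**
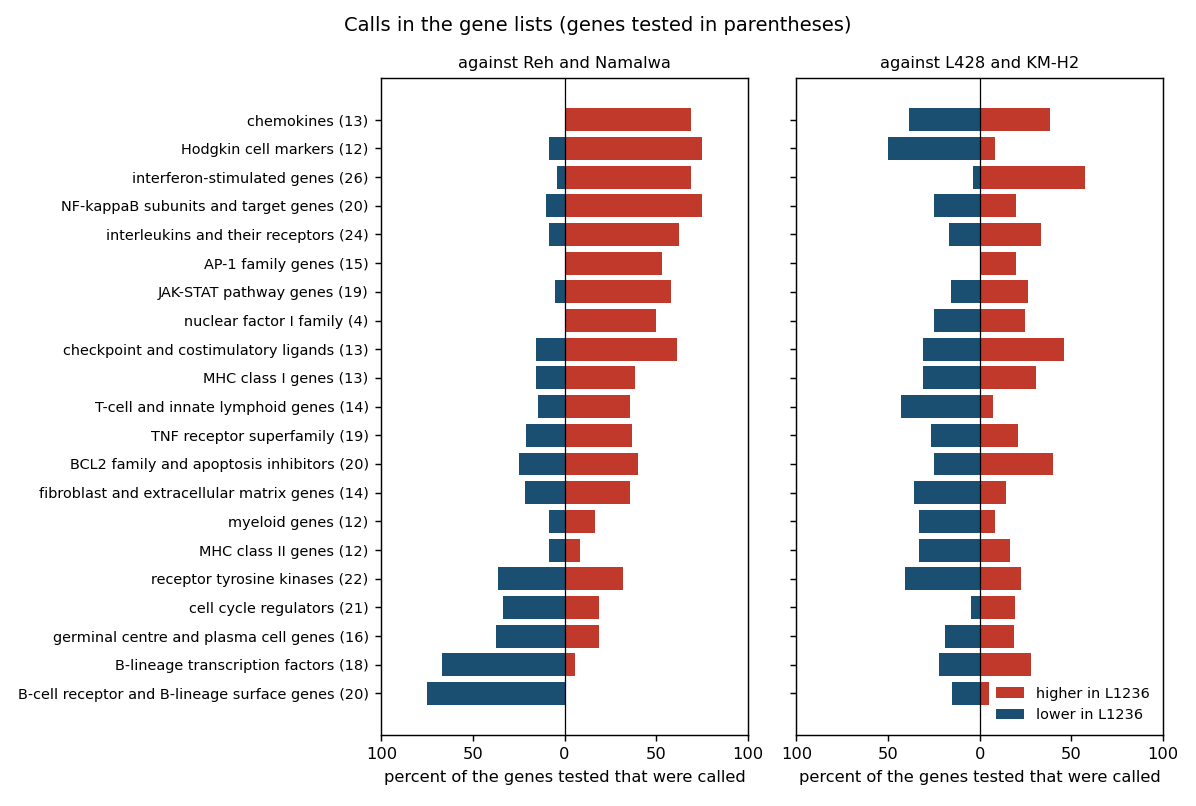
Percent of the tested genes of each list that were called higher (red, to the right) or lower (blue, to the left) in L1236, against Reh and Namalwa (left panel) and against L428 and KM-H2 (right panel), with the number tested in parentheses. B-cell surface genes extend furthest to the left in the left panel, and interferon-stimulated genes extend furthest to the right in the right panel.

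TRAF2 and EDF1 lie close together on chromosome 9, which led to a look at their neighbours. The genes of this stretch were chosen after their values were seen, so no test is given. Between the start of RABL6 and the end of TRAF2 (chr9:139702395-139821059, GRCh37, 118665 bases), the table held 8 rows, of which 6 were above 0 in another library, and no L1236 value exceeded 0.36 FPKM. RABL6 was listed at 0 in both L1236 libraries and measured 14.7 to 69.1 FPKM in L428, KM-H2, Reh and Namalwa. EDF1 was at 0.36 and 0 FPKM against 146 to 313 FPKM, and PHPT1, a protein histidine phosphatase, at 0 and 0.0429 FPKM against 21 to 51.9 FPKM.

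The flanking genes gave signal in L1236, at levels that differed from the other untreated lines in both directions. TMEM141, before the stretch, measured 11.6 and 13 FPKM in L1236 against 16.2 to 65.0 FPKM, and C9orf142, after it, 12.4 and 13.7 FPKM against 22.9 to 45.7 FPKM, while FBXW5, the first gene after TRAF2, was at 3.15 and 2.28 FPKM against 18.4 to 68 FPKM in the other untreated lines. The annotated CCDC183-AS1 overlaps the start of RABL6 on the opposite strand and measured 2.32 and 2.94 FPKM in L1236, 0.597 to 1.34 FPKM in L428, KM-H2 and Reh and 3.4 and 2.72 FPKM in Namalwa. C8G, after FBXW5, was at 1.88 and 2.47 FPKM in L1236 and at most 0.53 FPKM in the other untreated lines. The cause of the missing signal was not tested.

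**Figure D5:**
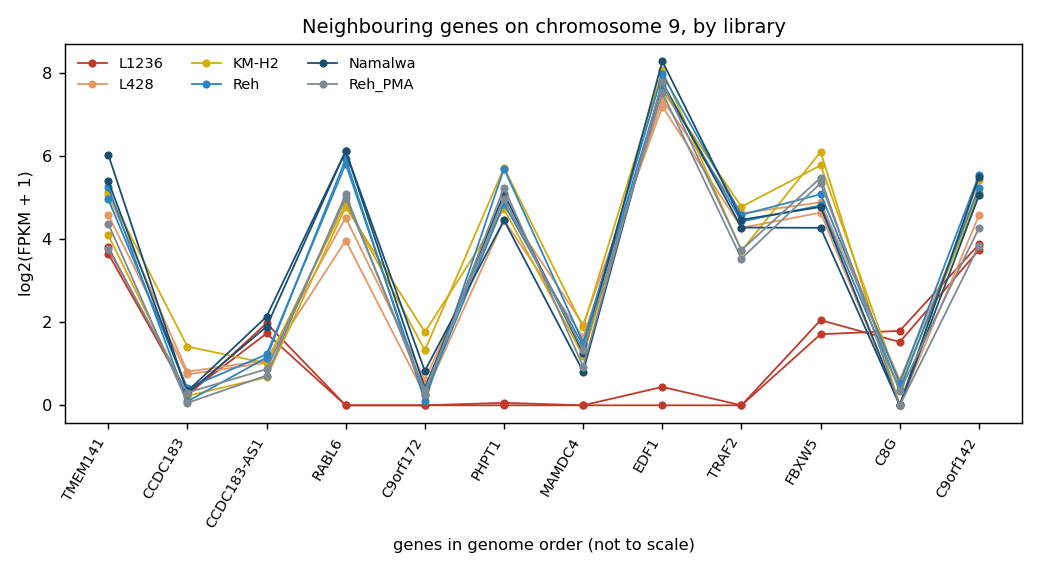
log2(FPKM + 1) of neighbouring genes on chromosome 9 in genome order (not to scale), with a line for each of the 12 libraries. Both L1236 libraries (red) drop to near 0 from RABL6 to TRAF2, where the other lines reach up to 313 FPKM for EDF1, and L1236 measures 11.6 to 13.7 FPKM at TMEM141 and C9orf142, under the other untreated lines.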

How the data were processed

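Total RNA depleted of ribosomal RNA was sequenced from duplicate libraries (TruSeq Stranded Total RNA kit) of 6 groups. The authors deposited 1 table of FPKM values, normalised with Cuffnorm 2.2.1 after alignment to hg19 with TopHat2 2.0.11, per the labels and the submitters' processing notes. It holds no counts, so depth is unknown and no count test was run. All 12 columns were tied to a group by name, but the suffixes 0 and 1 could not be tied to the replicate numbers of the labels.

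FPKM values were taken as log2(FPKM + 1). Members were counted over all 26210 rows. limma 3.58.1 (R 4.3.3) fitted 6 group means to 12 libraries (6 residual degrees of freedom, eBayes with trend) over 14679 genes with FPKM of at least 1 in 2 or more libraries, with Benjamini-Hochberg adjustment over all of them. A gene was called at an adjusted p under 0.05 and a log2 difference of at least 1. Each gene had 1 residual spread pooled over all 6 groups, although the duplicates of the cHL lines lay further apart than those of the controls. The errors and p-values of contrasts between cHL lines may thus be too small. The script was tested on simulated data. The test used in the study for these data is not given in the sources used here, and the kit marks strand but the strand setting of the counting is not given either.

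Named were the 15 higher and 10 lower members furthest from the controls, the 5 genes with the greatest called difference in each direction, 6 genes followed by the study or by this comparison (NFIX, TNFRSF11A, TNFRSF8, CSF1R, WNT5A, CBFA2T3), up to 3 called genes in each direction of each list, and list genes that were members. Sex-linked marker genes were not named. A few genes that meet the rule are not reported here. The members and lists were chosen with earlier results of these data known. Positions are from GENCODE on GRCh37, found for all but 1957 rows, and promoters from RefSeq.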

Additional observations from a re-analysis of the deposited data

Results flagged for a closer look

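The results below are differences between L1236 and the mean of L428 and KM-H2 (log2, limma, adjusted over all genes tested) of genes that the naming rule gave outside the members, called in this comparison with a size of at least 2.5. Genes chosen after their values were seen (LGALS9, MX1, PAX5 and POU2AF1 among them) are left out. They show where the cHL lines differ under the same comparison with Reh and Namalwa. Higher in L1236 were ALOX15 (7.01), the Fc receptor gene FCGR2A (3.94), CD27 (3.59), CXCL10 (3.24), IFI44L (3.24), IL6 (3.21), TCF7 (2.90), CD274 (2.78), TNFRSF11A (2.77) and GPR15 (2.67). Lower in L1236 were PIM1 (-2.54), HLA-DOA (-2.59), WNT5A (-2.77), CD24 (-4.27), TRAF2 (-4.35), CD83 (-4.57), IFITM2 (-4.68) and EDF1 (-7.34).

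These 18 differences were the result of the test itself, with adjusted p between 6.19e-08 (EDF1) and 0.00162 (CXCL10).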

How the results depend on the processing

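The counts against Reh and Namalwa stayed within 1.5 times under all alternatives run except adjusted p alone, which gave 3296 lower genes (3366 higher), and they ranged from 2076 to 2326 (higher) and 1758 to 2002 (lower) when 1 library was left out. Against L428 and KM-H2 the range was 2731 to 3135 (main 3054), and 182 to 203 of the list genes (main 206) were called against the controls. Median centring moved the median difference of all genes to -0.14 and the higher share of calls to 46.0%.

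The members depended on the rule. The 435 higher members became 221 among genes that passed the filter, 162 with a gap of at least 0.5, 1031 with the control range widened by 0.25, 931 with L428 alone and 981 with KM-H2 alone inside the range, 97 after median centring, 1242 without the suffix 1 libraries of L1236, L428 and KM-H2 (an alternative added after seeing the data) and 400 to 806 with 1 library left out, with 806 and 752 without the first and second L1236 library. Of 365 members lost under median centring, 321 had a value of 0 in a control, L428 or KM-H2 library, and centring shifts such zeros apart by construction, but 44 of the 101 members above 0 in all of these libraries were lost too. The 106 lower members became 33, 558, 437, 455, 166 and 455 under the corresponding settings for the gap, the widened range, L428 alone, KM-H2 alone, median centring and the suffix 1 libraries, and 83 to 183 with 1 library left out: 165 and 162 without the first and second L1236 library, 183 without the second L428 library, and 176 and 166 without the first and second KM-H2 library. Leaving out a library of L1236, L428 or KM-H2 can only admit more genes by construction, whereas leaving out a control library narrows the range and lowered both counts (400 to 410 higher and 83 to 100 lower). The 24 lower members under the controls in Reh_PMA became 54 with Reh alone, where the share of all rows also rose, from 16.7% to 27.2%.

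Of 3064 values of single genes under alternatives, 2935 kept their side of the threshold, 107 lost it, 17 gained it and 5 reversed. The reversals were IKZF3 (-1.22), TNFSF4 (0.48), CD27 (-1.15) and FLT3 (0.034) against Namalwa alone, and JCHAIN (0.075) against Reh alone. Of the 107, 14 were lost with Reh and Namalwa as 1 group. The libraries of the cHL lines differed along the column suffix in a shared direction, as given above. A term for the suffix, common to all libraries, gave 2330 higher and 1987 lower genes. Each group holds 1 library of each suffix, so this term leaves the differences between groups unchanged and alters only their error. It cannot remove a shift that differs between the lines. No paired analysis was possible by replicate number, because the replicate numbers of the labels could not be tied to columns. The term for the suffix blocked the libraries by column suffix only (2330 higher and 1987 lower against the controls). Against L428 and KM-H2 it gave 3076 genes that differed (main 3054). No label says whether libraries with the same suffix belong together. Since FPKM carries no depth, low values have an unknown error.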

Other observations

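L1236 was at or near 0 for 24 genes (under 1 FPKM in both libraries) that reached at least 5 FPKM in all 8 libraries of L428, KM-H2, Reh and Namalwa, of which ETS2 and LAMC1 are members. The same criterion found 15 genes for L428, 11 for KM-H2, 41 for Reh and 34 for Namalwa. With a limit of 1 FPKM in place of 5 in the other libraries the counts were 102 for L1236, 85 for L428, 113 for KM-H2, 188 for Reh and 215 for Namalwa, so that the order of the lines depends on the limit. All genes named from here on were chosen after their values were seen, and no test was made. SNRPN, an imprinted gene of splicing in the brain (chr15:25068784-25223870, GRCh37), was listed at 0 in L1236 and measured 29.2 to 135 FPKM in the other 8 libraries, and the overlapping SNURF was listed at 0 against 8.31 to 37.7 FPKM. SNURF lies within the annotated stretch of SNRPN, and reads may be counted for either. GSTO1, an omega-class glutathione transferase, was listed at 0 against 29.9 to 105 FPKM, and the septin gene SEPT9 was at 0.172 and 0.185 FPKM against 8.74 to 171 FPKM.

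Among signalling genes, FYN, a Src-family kinase, stood at 0.232 and 0.537 FPKM against 6.2 to 14.5 FPKM. SLC38A1, a glutamine transporter, stood at 0.554 and 0.349 FPKM against 19.3 to 83.9 FPKM. LDAH, RNF149, ANKRD28 and TSPYL1 were also listed at 0 in both L1236 libraries.

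In the opposite direction, 74 genes reached 5 FPKM or more in both L1236 libraries and stayed under 1 FPKM in the other 8 libraries, against 44 for L428, 110 for KM-H2, 106 for Reh and 48 for Namalwa. With 1 FPKM in place of 5 these counts were 239, 181, 424, 347 and 123.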
